A study of Mus musculus with 11 samples.

Results

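The mitochondrial respiratory chain and ATP synthase are built mostly from proteins encoded in the nucleus. Their genes were taken by symbol from an array study of 3 mouse tissues: the subunits of complexes I, II, III, IV and V, with cytochrome c1 counted in complex III and the carrier cytochrome c on its own. Of 30142 genes that could be named singly on the array, 76 were such subunits: 34 of complex I, 4 of complex II, 9 of complex III, cytochrome c, 12 of complex IV and 16 of complex V. The 8 isoforms and partners Ndufa4, Ndufa4l2, Cox4i1, Cox4i2, Cox6a2, Cox7a1, Cox8a and Cox8b, the assembly factors and 5 pseudogenes were kept out. Ndufb1, Ndufb4, Ndufa11 and Atp5c1 were not analysed here.

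Total RNA came from C57B6 wild-type mice of both sexes, aged 2 months and given no treatment that the labels name. The carotid body was hybridised on 3 arrays, each a pool of 10 mice, and the adrenal medulla and the superior cervical ganglion on 4 arrays each, each array a pool of 3 mice. The carotid body is a small organ at the carotid artery whose glomus cells sense arterial oxygen, the adrenal medulla holds the catecholamine-secreting chromaffin cells, and sympathetic neurons make up the superior cervical ganglion. The design compares these tissues at rest.

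Complex I (NADH dehydrogenase) and complex II (succinate dehydrogenase) pass electrons to coenzyme Q, complex III passes them on to cytochrome c, and complex IV (cytochrome c oxidase) hands them to oxygen. Complexes I, III and IV pump protons, and complex V (ATP synthase) uses the gradient to make ATP. Glomus cells respond to inhibitors of the chain as they do to low oxygen, neurons spend much ATP on ion pumping, and cells of the adrenal cortex carry out steps of steroid synthesis inside mitochondria.

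Values are deposited log2 levels, and every difference is between tissue means on that scale. A gene was called where limma's moderated test over all 11 arrays gave a Benjamini-Hochberg adjusted p under 0.05 across all 30142 genes. A level was read as above background where the tissue mean passed the 95th percentile of 349 vomeronasal receptor and hair keratin-associated protein genes taken as silent, which was 5.38 in carotid body, 5.35 in adrenal medulla and 5.45 in ganglion. Of the 76 subunits, 73 passed it in every tissue, Cox6b2 in carotid body only, and Cox7b2 and Cox8c in none. Each tissue contrast shares arrays with the other contrasts, so the 3 sets of calls are not independent of each other.

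Markers of other cells moved with the tissues. The summed level of 10 adrenal cortex markers was 21.2 to 21.4 on the adrenal medulla arrays, with all 10 genes above background there, against 9.22 to 9.47 on carotid body arrays and 9.0 to 9.28 on ganglion arrays, where 6 and 7 of them lay at background. The summed level of 10 neuron markers was 19.9 to 20 in ganglion, 16.5 to 18.4 in carotid body and 16.8 to 17.5 in adrenal medulla. Such a sum follows its brightest genes. Taken gene by gene, 6 of these 10 were called higher and 0 lower for carotid body minus adrenal medulla, beside 13.7% and 15.6% of all genes. Their median difference was 1.88. The 8 chromaffin and glomus markers summed to 18.4 to 20.04 in carotid body, below 21.7 in adrenal medulla and 20.6 to 20.8 in ganglion. For carotid body minus ganglion 5 of these 8 were called lower and 2 higher, beside 19.9% and 14.2% of all genes. The 2 were Chga, by 1.98, and Chgb, by 1.64. Carotid body arrays stood highest for 7 fibroblast markers (18.1 to 18.2, against 13.03 to 13.2 in adrenal medulla and 16.1 to 16.2 in ganglion), 8 smooth muscle and pericyte markers (19.1 to 19.5, against 14.03 to 14.2 and 11.8 to 12.5) and 8 adipocyte markers (14.1 to 14.9, against 9.84 to 10.2 and 10.1 to 10.8). Summed levels of 7 glial markers were 15.6 to 16.5 in carotid body, 11.5 to 12.1 in adrenal medulla and 15.7 to 16.8 in ganglion, and those of 7 endothelial markers were 14.3 to 14.5, 15.3 to 15.8 and 10.3 to 10.7. The 4 blood and immune markers summed, in the same order of tissues, to 13.7 to 13.9, 13.4 to 13.8 and 10.9 to 12.4, and the 8 skeletal muscle markers to 8.39 to 10.2, 8.13 to 8.28 and 8.18 to 8.48. The part of these other cells in any difference below was not tested, and in bulk tissue fewer cells of a type and less RNA per cell cannot be told apart.

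Most subunits were highest in the ganglion. It held the highest mean for 55 of the 76 subunits, against 42.6% of all genes, the adrenal medulla for 13, against 23.8%, and the carotid body for 8, against 33.6%. The lowest mean lay in the carotid body for 38 subunits (50%, against 28.2% of all genes), in the adrenal medulla for 32 (42.1%, against 46.2%) and in the ganglion for 6 (7.89%, against 25.6%). Against the ganglion the carotid body was lower for 40 subunits and higher for 4, beside 19.9% and 14.2% of all genes, and the adrenal medulla was lower for 39 and higher for 3, beside 18.8% and 15.6%. These make 52.6% and 51.3% of the subunits called lower than in ganglion. Among the 17763 genes above background in at least 1 tissue the shares called lower were 31.8% and 26.6%.

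**Figure D1:**
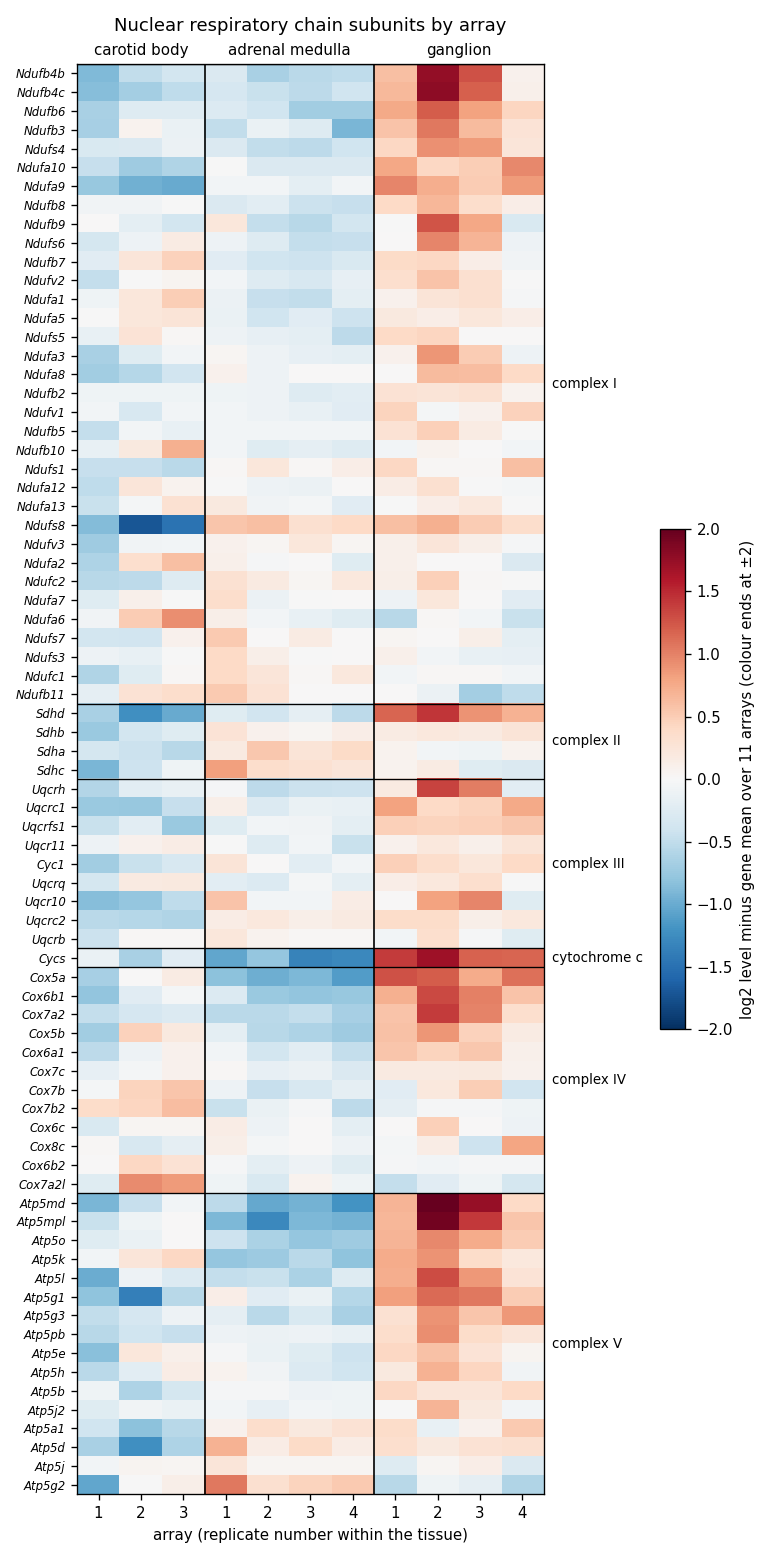
Heat map of the 76 nuclear respiratory chain subunits (rows, grouped by complex and ordered by the difference between adrenal medulla and ganglion) on the 11 arrays (columns). Colour gives the log2 level minus the gene's mean over all arrays, red above and blue below, and the ganglion columns are the reddest for 55 subunits by their mean.

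The carotid body and the adrenal medulla differed less from each other and in both directions. The carotid body was lower for 19 subunits and higher for 9, beside 15.6% and 13.7% of all genes, and the 19 are 25% of the subunits against 26.0% of genes above background, so over the whole set the count lower is near the background. Carotid body replicate 1 bears on this contrast: its median deviation from the carotid body means over the 76 subunits was -0.20, against 0.04 and 0.17 for replicates 2 and 3, and without it 16 subunits were higher and 14 lower. Without it Cox5b, Cox7a2l and Ndufa6 were among those called higher and Atp5b among those called lower. Centring every array on its median, under which all genes had a median difference of -0.10 in place of 0.05, gave 6 higher and 26 lower, beside 9.9% and 23.7% of all genes. For the adrenal medulla against the ganglion, repeating the quantile normalization gave 7 higher and 29 lower, beside 21.1% and 14.2% of all genes.

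At 2-fold or more, 18 subunits were lower in carotid body than in ganglion and none was higher, beside 8.28% and 5.61% of all genes. The adrenal medulla also had 18 lower and none higher, beside 7.5% and 5.72%. Between carotid body and adrenal medulla 2 subunits were lower in carotid body by 2-fold or more, Ndufs8 and Atp5d, and none was higher, beside 4.95% and 6.06%.

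Taking the contrasts together, 29 subunits (38.2%) were called higher in ganglion than in both other tissues, a pattern of 12.1% of all genes, and none lower than in both, a pattern of 7.34%. The carotid body was called lower than both for 16 subunits (21.1%), beside 7.87% of all genes, and higher than both for 2, the dim Cox6b2 and Cox7b2, beside 6.27%. The adrenal medulla was called lower than both for 7, namely Ndufa1, Ndufa5, Ndufb7, Cox5a, Atp5k, Atp5o and Cycs, beside 6.33%, and higher than both for 2, Sdha and Atp5g2, beside 8.14%. In all 3 contrasts 11 subunits (14.5%) were called, and in none 18 (23.7%). The shares of all genes with these last patterns were not computed, so nothing is read from these counts.

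The complexes did not share one order of tissues. In carotid body minus adrenal medulla the median difference was -0.02 over complex I, -0.71 over complex II, -0.33 over complex III, 0.33 over complex IV and -0.05 over complex V, beside a median of 0.05 over all genes. Complex II and complex III had 4 of 4 (100%) and 5 of 9 (55.6%) subunits lower in carotid body and none higher. Complex IV had 3 of 12 higher (25%) and none lower, and 2 of the 3 were the dim Cox6b2 and Cox7b2. All genes gave 15.6% lower and 13.7% higher, and genes above background 26.0% and 19.8%. Against the ganglion the carotid body medians were -0.41, -0.55, -0.85, -0.24 and -0.82 for complexes I to V, beside -0.02 over all genes. In adrenal medulla minus ganglion they were -0.41, 0.13, -0.36, -0.29 and -0.56, beside -0.08 over all genes, so complex II was the complex whose median lay above 0 there.

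**Figure D2:**
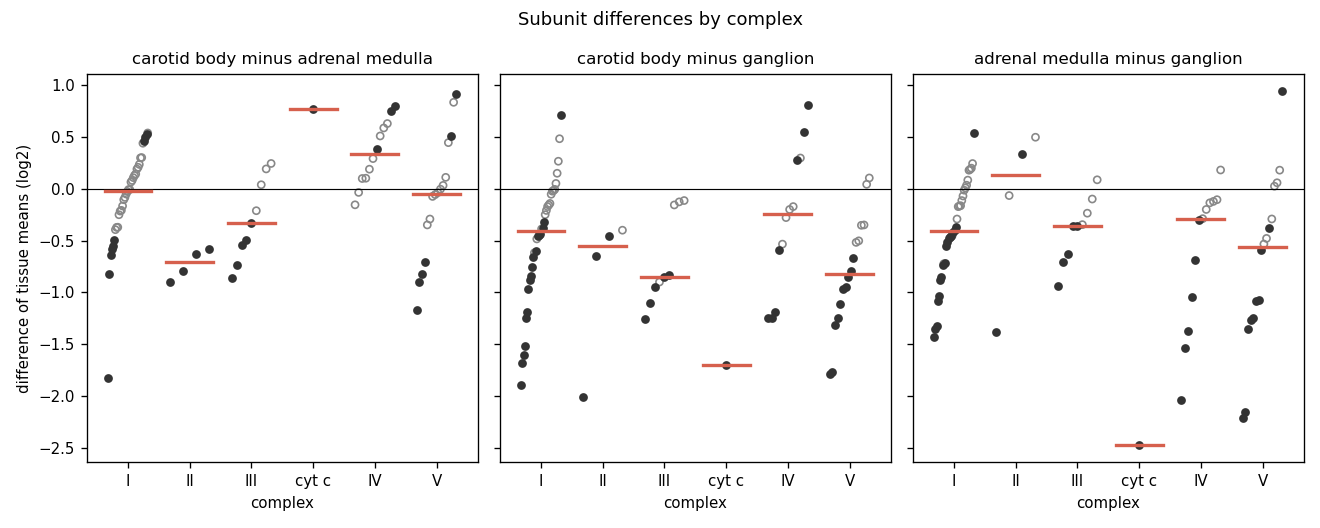
Difference of tissue means (log2) for each subunit, by complex, in the 3 tissue contrasts. Filled points were called at an adjusted p under 0.05 with limma, open points were not, and the red bars are medians over the subunits of a complex. All 4 complex II points lie below 0 in carotid body minus adrenal medulla, and cytochrome c is the lowest point in adrenal medulla minus ganglion.

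**Figure D3:**
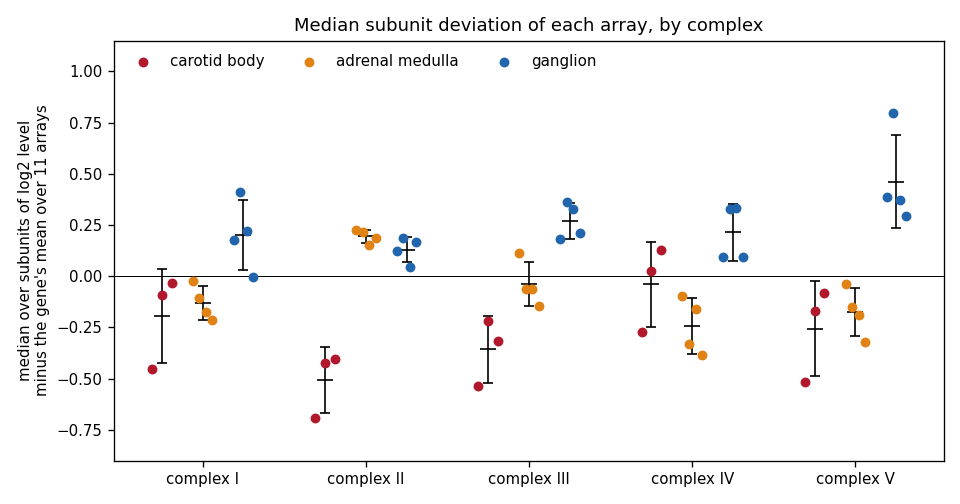
For each array, the median over the subunits of a complex of the log2 level minus the gene's mean over 11 arrays. Points are arrays, horizontal marks the mean of a tissue's arrays and bars their SD (3 carotid body, 4 adrenal medulla and 4 ganglion arrays). For complex II the 3 carotid body arrays lie between -0.69 and -0.41 and all 8 other arrays between 0.04 and 0.22.

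In complex I the carotid body was lower than the adrenal medulla for 6 of 34 subunits (17.6%) and higher for 3 (8.82%), near or under the shares of all genes (15.6% and 13.7%), and both tissues were lower than the ganglion for 17 and higher for 1, beside 19.9% and 14.2% of all genes for the carotid body and 18.8% and 15.6% for the adrenal medulla. The subunit that set the carotid body apart most was Ndufs8, a core subunit that carries iron-sulfur clusters on the path of the electrons to coenzyme Q. Ndufs8 read 11.29, 10.45 and 10.69 on the carotid body arrays, 12.73, 12.77, 12.49 and 12.56 in adrenal medulla, and 12.76, 12.88, 12.67 and 12.52 in ganglion. All 3 carotid body arrays lay below all 8 others, which overlapped each other. The carotid body was 3.54-fold below adrenal medulla (log2 difference -1.82, SE 0.17, limma adjusted p = 1.79e-05) and 3.72-fold below ganglion (log2 -1.89, SE 0.17, limma adjusted p = 1.19e-05), while adrenal medulla and ganglion differed by -0.07 (limma adjusted p = 0.766).

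The other conserved core subunits moved less. Ndufs1, the largest core subunit with several iron-sulfur clusters, was lower in carotid body (9.89, 9.89 and 9.81) than in the adrenal medulla (10.37, 10.57, 10.37 and 10.47) and ganglion (10.77, 10.37, 10.37 and 10.95), with no overlap. The differences were -0.58 and -0.75 (limma adjusted p = 0.00754 and 0.00127). Ndufv1 and Ndufv2, which form the NADH-oxidising end, were lower than in ganglion by 0.38 and 0.45 in carotid body and by 0.37 and 0.51 in adrenal medulla. These calls lay close to the threshold: that of Ndufv1 in carotid body minus ganglion was lost when any array but ganglion replicates 2 and 3 was left out, with limma adjusted p between 0.0571 and 0.183, and that of Ndufv2 when any array but carotid body replicate 3 and ganglion replicate 4 was, with p between 0.0553 and 0.169. In adrenal medulla minus ganglion Ndufv1 was lost without any of the adrenal medulla arrays or ganglion replicates 1 and 4 (limma adjusted p between 0.056 and 0.103) and Ndufv2 without adrenal medulla replicate 3 (limma adjusted p = 0.0514). Ndufs3 and Ndufs7, the other core subunits measured, were not called in any contrast, with differences between -0.40 and 0.20. With median centring both were called lower in carotid body against adrenal medulla (-0.37 and -0.55), as was Ndufs7 without carotid body replicate 3 (-0.55, limma adjusted p = 0.0229). Ndufs3 was called higher in adrenal medulla against ganglion with median centring (0.28) and with the quantile normalization repeated (0.30).

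Among the supernumerary subunits, which surround the core, Ndufa9 showed 3 separate levels. Ndufa9 stabilises the joint between the matrix and membrane arms, and it read 9.87, 9.65 and 9.61 in carotid body, 10.57, 10.57, 10.42 and 10.57 in adrenal medulla, and 11.60, 11.34, 11.12 and 11.48 in ganglion. No tissue overlapped another, and the steps were -0.82 (carotid body against adrenal medulla), -1.68 (carotid body against ganglion) and -0.85 (adrenal medulla against ganglion) (limma adjusted p = 0.000254, 1.62e-06 and 7.36e-05). Ndufa10, of the membrane arm, stood at 11.14, 10.90 and 11.01 in carotid body, at 11.61, 11.31, 11.32 and 11.32 in adrenal medulla, and at 12.38, 12.02, 12.10 and 12.57 in ganglion. Its ganglion arrays were above all others, by 1.25 over carotid body and 0.88 over adrenal medulla on the log2 scale.

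Several subunits were high in the ganglion, with no call between the other tissues. Ndufs4, a matrix-arm subunit needed for stable complex I, was lower by 0.84 in carotid body and by 1.03 in adrenal medulla than in ganglion. The membrane-arm subunits Ndufb6 and Ndufb3 were lower by 1.19 and 0.88 in carotid body and by 1.32 and 1.08 in adrenal medulla. The Ndufb3 call in carotid body minus ganglion was lost without carotid body replicate 1 (limma adjusted p = 0.0581). Ndufb4b and Ndufb4c, near-identical copies of Ndufb4 whose signal the probes may not separate, were lower by 1.51 and 1.61 in carotid body and by 1.43 and 1.36 in adrenal medulla.

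A smaller group of complex I subunits was lowest in adrenal medulla. Ndufa5, a matrix-arm subunit, read 7.78, 8.01 and 8.05 in carotid body, 7.65, 7.39, 7.56 and 7.36 in adrenal medulla, and 7.98, 7.91, 8.01 and 7.91 in ganglion. Its adrenal medulla arrays lay below all the others, by 0.45 and 0.46 (limma adjusted p = 0.0039 and 0.0017), and carotid body and ganglion differed by -0.01. Ndufa1 and Ndufb7 had adrenal medulla levels lower by 0.53 and 0.50 than carotid body and by 0.48 and 0.55 than ganglion. In carotid body minus adrenal medulla the Ndufa1 call was lost without adrenal medulla replicates 2 or 3 or carotid body replicates 2 or 3 (limma adjusted p between 0.0562 and 0.0902). The Ndufb7 call there was lost without any adrenal medulla array, carotid body replicates 2 or 3 or ganglion replicate 3 (p between 0.0547 and 0.173), and the Ndufa1 call in adrenal medulla minus ganglion without adrenal medulla replicates 2 or 3 or ganglion replicate 3 (p between 0.0518 and 0.0599).

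The complex I subunits called higher against the ganglion were 1 in each tissue. Ndufa6, a matrix-arm subunit, was 0.71 higher in carotid body, a call lost without carotid body replicates 2 or 3 or ganglion replicates 1 or 4 (limma adjusted p between 0.0687 and 0.121). Ndufb11, a membrane-arm subunit encoded on the X chromosome, was 0.53 higher in adrenal medulla, a call lost without adrenal medulla replicates 1, 2 or 3, carotid body replicates 2 or 3 or ganglion replicates 3 or 4 (p between 0.0512 and 0.128). Ndufc2, of the membrane arm, differed in carotid body by -0.63 from adrenal medulla and by -0.60 from ganglion, the second call being lost on repeating the quantile normalization (-0.29, limma adjusted p = 0.0856).

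Complex II is the one complex made only of nuclear-encoded subunits, and all 4 of its genes had lower levels in carotid body than in the adrenal medulla. Sdha and Sdhb, which form the catalytic head that oxidises succinate, were also lower in carotid body than in ganglion. Sdha read 11.36, 11.28 and 11.16 in carotid body, 11.89, 12.26, 11.98 and 12.10 in adrenal medulla, and 11.79, 11.66, 11.63 and 11.79 in ganglion. The tissues did not overlap, with the adrenal medulla highest by 0.34 over ganglion (SE 0.09, limma adjusted p = 0.0139) and by 0.79 over carotid body (SE 0.10, limma adjusted p = 0.000114). Carotid body lay 0.45 below ganglion (SE 0.10, limma adjusted p = 0.0038), a call that was lost on repeating the quantile normalization, where the difference was -0.09 (limma adjusted p = 0.547).

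Sdhb, the iron-sulfur subunit, read 8.93, 9.31 and 9.42 in carotid body, 9.95, 9.75, 9.71 and 9.81 in adrenal medulla, and 9.84, 9.88, 9.85 and 9.93 in ganglion. The carotid body arrays were the 3 lowest, by 0.58 against adrenal medulla and 0.65 against ganglion (limma adjusted p = 0.00207 and 0.000806). The membrane anchors Sdhc and Sdhd went apart. Sdhc read 8.46, 8.97 and 9.30 in carotid body, 10.19, 9.72, 9.68 and 9.61 in adrenal medulla, and 9.46, 9.54, 9.14 and 9.09 in ganglion. Adrenal medulla was the highest tissue without overlap, 0.90 above carotid body (SE 0.21, limma adjusted p = 0.007), while its 0.49 over ganglion was not called (limma adjusted p = 0.0696). That call was gained without carotid body replicates 1 or 3 (limma adjusted p = 0.0322 and 0.048), with median centring (0.58) and with the quantile normalization repeated (0.65).

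Sdhd, by contrast, was a ganglion-high gene. It read 9.36, 8.79 and 9.01 in carotid body, 9.77, 9.63, 9.84 and 9.48 in adrenal medulla, and 11.18, 11.45, 10.91 and 10.71 in ganglion. The ganglion arrays lay above all others, 4.03-fold over carotid body (log2 difference -2.01, SE 0.18, limma adjusted p = 1.09e-05) and 2.6-fold over adrenal medulla (-1.38, SE 0.17, limma adjusted p = 6.8e-05). The step of 0.63 between carotid body and adrenal medulla was called at a limma adjusted p = 0.0236, and the call was lost without adrenal medulla replicates 1 or 3 or carotid body replicates 2 or 3 (limma adjusted p between 0.0584 and 0.108).

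The 250 bases before the Sdhd start in RefSeq on GRCm38.p6 (chr9:50603850-50604099, minus strand) are shown because Sdhd had the largest tissue difference of complex II. Capitals in this and the later promoters mark matches on either strand to binding motifs of factors known for respiratory genes: NRF1 (GCGCATG followed by CGC), its shorter form (GCGCATG), YY1 (AAGATGGC), ERR (TCAAGGTCA) and ETS factors such as GABP (CCGGAAG). Here the capitals are an ETS match, read on the opposite strand.
Sdhd: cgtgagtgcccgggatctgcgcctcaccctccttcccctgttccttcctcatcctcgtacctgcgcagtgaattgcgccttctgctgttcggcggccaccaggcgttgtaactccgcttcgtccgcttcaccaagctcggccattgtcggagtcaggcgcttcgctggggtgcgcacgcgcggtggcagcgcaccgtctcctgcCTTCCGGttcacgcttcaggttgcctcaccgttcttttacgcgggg

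In complex III no subunit was called higher in carotid body than in the adrenal medulla, or in either than in ganglion. The core proteins Uqcrc1 and Uqcrc2, cytochrome c1 (Cyc1) and the Rieske iron-sulfur protein Uqcrfs1 were lower in carotid body than in both others. Uqcrc2 read 11.20, 11.17 and 11.13 in carotid body, 11.88, 11.94, 11.85 and 11.91 in adrenal medulla, and 12.10, 12.09, 11.85 and 11.95 in ganglion. The 3 carotid body arrays were within 0.03 (SD) of each other and far below the rest, by 0.73 and 0.83 (SE 0.08 for each, limma adjusted p = 3.28e-05 and 1.14e-05), while the other tissues overlapped.

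Uqcrc1, its partner, instead had 3 levels. It read 10.83, 10.82 and 11.11 in carotid body, 11.69, 11.30, 11.44 and 11.43 in adrenal medulla, and 12.38, 11.97, 12.01 and 12.34 in ganglion. No tissue overlapped, with differences of -0.54, -1.25 and -0.71 in the 3 contrasts (limma adjusted p = 0.0101, 3.14e-05 and 0.000923). Cyc1, which passes electrons to cytochrome c, was lower in carotid body by 0.49 against adrenal medulla and by 0.85 against ganglion, and its 0.36 between adrenal medulla and ganglion was lost without adrenal medulla replicates 2, 3 or 4 or ganglion replicates 1, 2 or 4 (limma adjusted p between 0.0608 and 0.0979).

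Uqcrfs1 was higher in ganglion (7.85, 7.83, 7.86 and 7.92) than in carotid body (6.94, 7.16 and 6.64) and adrenal medulla (7.14, 7.32, 7.32 and 7.19), by 0.95 and 0.62. Its carotid body and adrenal medulla arrays overlapped, and the difference of -0.33 between them (limma adjusted p = 0.0463) was lost when any array but carotid body replicate 2 was left out (p between 0.055 and 0.174). The small subunit Uqcr10 was lower in carotid body by 0.86 against adrenal medulla and 1.10 against ganglion, the first call being lost without any carotid body or adrenal medulla array (p between 0.0546 and 0.115). Uqcrh, the hinge protein that docks cytochrome c1, and Uqcr11 were called in adrenal medulla minus ganglion, by -0.94 and -0.36. Uqcrh was also called in carotid body minus ganglion without ganglion replicates 1 or 4 (-1.03 and -1.17, limma adjusted p = 0.0488 and 0.00797). The Uqcrh call was lost without adrenal medulla replicates 2, 3 or 4 or ganglion replicates 2 or 3 (p between 0.0704 and 0.0832), and the Uqcr11 call without adrenal medulla replicates 2 or 4 or ganglion replicates 2 or 4 (p between 0.051 and 0.0587).

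Cytochrome c (Cycs), the mobile carrier between complexes III and IV, had the largest difference of all 76 subunits on the cluster used. Cycs read 12.44, 11.93 and 12.35 in carotid body, 11.55, 11.81, 11.25 and 11.30 in adrenal medulla, and 13.98, 14.28, 13.76 and 13.74 in ganglion. No tissue overlapped another. Adrenal medulla was 5.52-fold below ganglion (log2 difference -2.46, SE 0.17, limma adjusted p = 6.4e-07), carotid body 3.25-fold below ganglion (-1.70, SE 0.18, limma adjusted p = 3.02e-05), and carotid body 1.7-fold above adrenal medulla (0.77, SE 0.18, limma adjusted p = 0.00777).

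The Cycs value comes from a cluster whose identifier places it on chromosome 19, while the gene lies on chromosome 6, so it may measure another copy of the sequence. The cluster on chromosome 6 gave tissue means of 9.75 in carotid body, 9.18 in adrenal medulla and 10.78 in ganglion, with differences of 0.57, -1.03 and -1.60 in the same order of contrasts (limma adjusted p = 0.00273, 3.59e-05 and 4.52e-07). The order of the tissues and all 3 calls were the same, and the ganglion differences were smaller than on the brighter cluster. With -1.60 Cycs would not rank first, as adrenal medulla minus ganglion reached -2.20 in complex V and -2.04 in complex IV.

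The promoters of Cycs (chr6:50566570-50566819) and of Atp5k (chr5:108434400-108434649), subunit e of ATP synthase, both on the minus strand in RefSeq on GRCm38.p6, are shown because both genes were called lowest in adrenal medulla. The capitals are the shorter NRF1 form in Cycs, read on the opposite strand, and the full NRF1 motif in Atp5k. The other 5 of the 7 subunits called lowest there, Ndufa1, Ndufa5, Ndufb7, Cox5a and Atp5o, hold neither NRF1 form in their windows and are not shown.
Cycs: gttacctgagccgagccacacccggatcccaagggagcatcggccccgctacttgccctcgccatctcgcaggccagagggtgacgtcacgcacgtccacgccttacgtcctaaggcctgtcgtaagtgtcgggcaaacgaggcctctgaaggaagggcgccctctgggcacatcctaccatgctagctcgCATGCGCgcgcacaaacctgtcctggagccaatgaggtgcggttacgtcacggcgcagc
Atp5k: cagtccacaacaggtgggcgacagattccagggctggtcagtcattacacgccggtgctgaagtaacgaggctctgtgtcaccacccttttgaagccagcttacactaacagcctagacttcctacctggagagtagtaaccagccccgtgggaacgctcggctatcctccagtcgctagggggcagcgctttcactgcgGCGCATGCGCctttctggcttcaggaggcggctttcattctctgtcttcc

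Complex IV was the complex whose subunits leaned upward in carotid body against adrenal medulla, with 10 of 12 differences above 0. The share of all genes above 0 was not computed. The median deviation of its subunits from their means over 11 arrays was -0.27, 0.03 and 0.13 on carotid body replicates 1, 2 and 3. On adrenal medulla arrays it was -0.38 to -0.10, so carotid body replicate 1 lay within the adrenal medulla range. Among the 12, 3 were called higher (25%) and none lower, beside 13.7% and 15.6% of all genes. Of the 3, Cox7b2 lay under the background bound in every tissue and Cox6b2 passed it in carotid body alone, both being isoforms known from testis. Cox5a, a matrix-side subunit, read 9.60, 10.28 and 10.43 in carotid body, 9.44, 9.29, 9.36 and 9.15 in adrenal medulla, and 11.55, 11.47, 11.003 and 11.37 in ganglion. Its tissues did not overlap and stood in the same order as those of cytochrome c. The differences were 0.79, -1.24 and -2.04 (SE 0.19, 0.19 and 0.18, limma adjusted p = 0.0094, 0.000432 and 5.02e-06), the last a 4.1-fold step.

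Further complex IV subunits were high in ganglion with carotid body and adrenal medulla overlapping. Cox6b1, on the side facing cytochrome c, read 13.31, 13.86 and 14.06 in carotid body, 13.82, 13.36, 13.31 and 13.34 in adrenal medulla, and 14.81, 15.41, 15.10 and 14.67 in ganglion. All ganglion arrays lay above the rest, by 1.25 over carotid body and 1.54 over adrenal medulla (limma adjusted p = 0.000998 and 0.000119). Cox7a2, the form of subunit 7A found in most tissues, was likewise 1.19 and 1.37 higher in ganglion, and Cox6a1 was 0.59 and 0.69 higher, the first of these lost without carotid body replicate 1 (limma adjusted p = 0.06). Cox5b, which faces the matrix beside Cox5a, was called only between adrenal medulla and ganglion, by -1.04 (limma adjusted p = 0.0058). Without carotid body replicate 1, Cox5b was also called higher in carotid body against adrenal medulla, by 0.85 in place of 0.51 (limma adjusted p = 0.00876).

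Cox7a2l went the other way. It read 10.90, 12.08 and 11.995 in carotid body, 11.05, 10.84, 11.20 and 11.05 in adrenal medulla, and 10.67, 10.91, 11.05 and 10.78 in ganglion. Carotid body replicates 2 and 3 were the highest arrays, and replicate 1 lay among the other tissues. The carotid body mean was 0.81 above ganglion (SE 0.24, limma adjusted p = 0.0247), a call lost without carotid body replicates 2 or 3 or ganglion replicates 1 or 4 (limma adjusted p between 0.0551 and 0.117), and its 0.63 over adrenal medulla was not called (limma adjusted p = 0.08). Without carotid body replicate 1 that difference was 1.01 and was called (limma adjusted p = 0.000205).

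The dim members of complex IV gave little. Cox6b2 read 5.41, 5.81 and 5.70 in carotid body and 5.17 to 5.37 on the other arrays, and its call against ganglion (limma adjusted p = 0.0493) was lost when any array but carotid body replicate 1 was left out (p between 0.0551 and 0.198). Its call against adrenal medulla was lost without carotid body replicate 2 (limma adjusted p = 0.053). Cox7b2 read 4.89 to 5.14 in carotid body and 4.01 to 4.51 elsewhere, and Cox8c 4.45 to 5.65 over all arrays, values not told apart from background.

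In complex V the carotid body was lower than the adrenal medulla for 4 of 16 subunits (25%) and higher for 2 (12.5%). All genes gave 15.6% and 13.7% there, and genes above background 26.0% and 19.8%, so neither share exceeded that of genes above background. The carotid body was lower than the ganglion for 10 (62.5%) and higher for none, beside 19.9% and 14.2% of all genes. The adrenal medulla was lower than the ganglion for 9 (56.2%) and higher for 1 (6.25%), beside 18.8% and 15.6%. Genes above background were called lower in these contrasts with ganglion for 31.8% and 26.6%. Of the 4 subunits of the catalytic F1 head, 2 (50%) were called lower in carotid body against the adrenal medulla and 3 (75%) against the ganglion. Atp5a1, the alpha subunit, read 13.17, 12.74 and 13.02 in carotid body, 13.66, 13.92, 13.76 and 13.85 in adrenal medulla, and 13.93, 13.42, 13.66 and 14.09 in ganglion. The carotid body arrays lay below all 8 others, by 0.82 and 0.80 (limma adjusted p = 0.00236 and 0.00228). Atp5d, the delta subunit of the rotating stalk, read 9.48, 8.90 and 9.52 in carotid body, 10.82, 10.28, 10.52 and 10.28 in adrenal medulla, and 10.47, 10.32, 10.43 and 10.45 in ganglion. The carotid body was 2.25-fold below adrenal medulla and 2.17-fold below ganglion (limma adjusted p = 0.000334 and 0.000355), and the other tissues overlapped.

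Atp5b, the catalytic beta subunit, was lower than in ganglion by 0.67 in carotid body and by 0.38 in adrenal medulla. Both calls were lost on repeating the quantile normalization, where the differences were -0.30 and -0.06 (limma adjusted p = 0.0707 and 0.732), and the second also under median centring. Without carotid body replicate 1 the beta subunit was also called lower against adrenal medulla, by -0.43 in place of -0.29 (limma adjusted p = 0.00772). Atp5e, the epsilon subunit, was not called in any contrast, and without carotid body replicate 1 its -0.53 in adrenal medulla minus ganglion was called (limma adjusted p = 0.00727). The median differences over the 4 F1 subunits measured were -0.56 for carotid body against adrenal medulla, -0.73 for carotid body against ganglion and -0.18 for adrenal medulla against ganglion.

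The c-ring turns as protons pass, and its subunit c has 3 genes that code for the same mature protein. The 3 isoform genes differed in tissue order. Atp5g1 read 9.35, 8.79 and 9.60 in carotid body, 10.29, 9.92, 10.02 and 9.58 in adrenal medulla, and 10.97, 11.28, 11.21 and 10.66 in ganglion. Ganglion arrays were the highest, 3.45-fold over carotid body (log2 difference -1.78, SE 0.22, limma adjusted p = 9.35e-05) and 2.11-fold over adrenal medulla (-1.08, SE 0.21, limma adjusted p = 0.00175). Carotid body and adrenal medulla overlapped, and the difference of -0.71 between them (limma adjusted p = 0.0348) was lost without adrenal medulla replicates 1, 2 or 3, carotid body replicates 1 or 2 or ganglion replicate 1 (limma adjusted p between 0.0504 and 0.153).

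Atp5g3 read 9.77, 9.94 and 10.16 in carotid body, 10.09, 9.73, 9.96 and 9.62 in adrenal medulla, and 10.57, 11.16, 10.83 and 11.13 in ganglion. The ganglion stood alone, by 0.96 over carotid body and 1.07 over adrenal medulla (SE 0.17 and 0.15, limma adjusted p = 0.000913 and 0.00023), and the other tissues overlapped. Atp5g2 read 12.09, 13.13 and 13.24 in carotid body, 14.19, 13.45, 13.58 and 13.65 in adrenal medulla, and 12.58, 13.05, 12.96 and 12.54 in ganglion. Here the adrenal medulla arrays were the highest and carotid body and ganglion overlapped.

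Atp5g2 was 0.94 higher in adrenal medulla than in ganglion (SE 0.26, limma adjusted p = 0.0149) and 0.90 higher than in carotid body (SE 0.28, limma adjusted p = 0.0314). The second call was lost without adrenal medulla replicates 1, 3 or 4 or carotid body replicate 1 (p between 0.0501 and 0.0877). The cluster used is placed on chromosome 7 and the gene lies on chromosome 15, whose own cluster gave 12.21 in carotid body, 13.39 in adrenal medulla and 12.31 in ganglion, with the same calls: -1.18 against adrenal medulla (limma adjusted p = 0.00822) and 1.08 for adrenal medulla over ganglion (limma adjusted p = 0.00746).

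The promoters of the 3 c-ring genes, all on the minus strand in RefSeq on GRCm38.p6, are shown side by side because the genes give 1 protein with different tissue orders: Atp5g1 at chr11:96075632-96075881, Atp5g2 at chr15:102671048-102671297 and Atp5g3 at chr2:73911327-73911576. The capitals are the full NRF1 motif in Atp5g2 and the ERR motif, on the opposite strand, in Atp5g3. None of the 5 motifs has its letters in the 250 bases of Atp5g1.
Atp5g1: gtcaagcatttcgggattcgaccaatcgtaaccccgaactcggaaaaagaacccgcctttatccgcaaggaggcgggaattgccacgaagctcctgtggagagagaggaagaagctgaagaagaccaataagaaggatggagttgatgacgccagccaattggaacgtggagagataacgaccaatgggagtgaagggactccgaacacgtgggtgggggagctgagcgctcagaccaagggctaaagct
Atp5g2: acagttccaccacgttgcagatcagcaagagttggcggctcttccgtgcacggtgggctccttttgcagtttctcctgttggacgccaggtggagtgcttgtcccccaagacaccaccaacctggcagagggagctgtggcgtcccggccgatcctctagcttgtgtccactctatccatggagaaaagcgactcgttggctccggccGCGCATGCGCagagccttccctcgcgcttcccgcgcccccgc
Atp5g3: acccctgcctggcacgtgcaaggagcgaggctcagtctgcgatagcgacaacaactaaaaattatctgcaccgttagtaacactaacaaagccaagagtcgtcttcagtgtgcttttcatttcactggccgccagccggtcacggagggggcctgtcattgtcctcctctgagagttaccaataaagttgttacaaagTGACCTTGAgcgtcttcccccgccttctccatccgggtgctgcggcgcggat

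**Figure D4:**
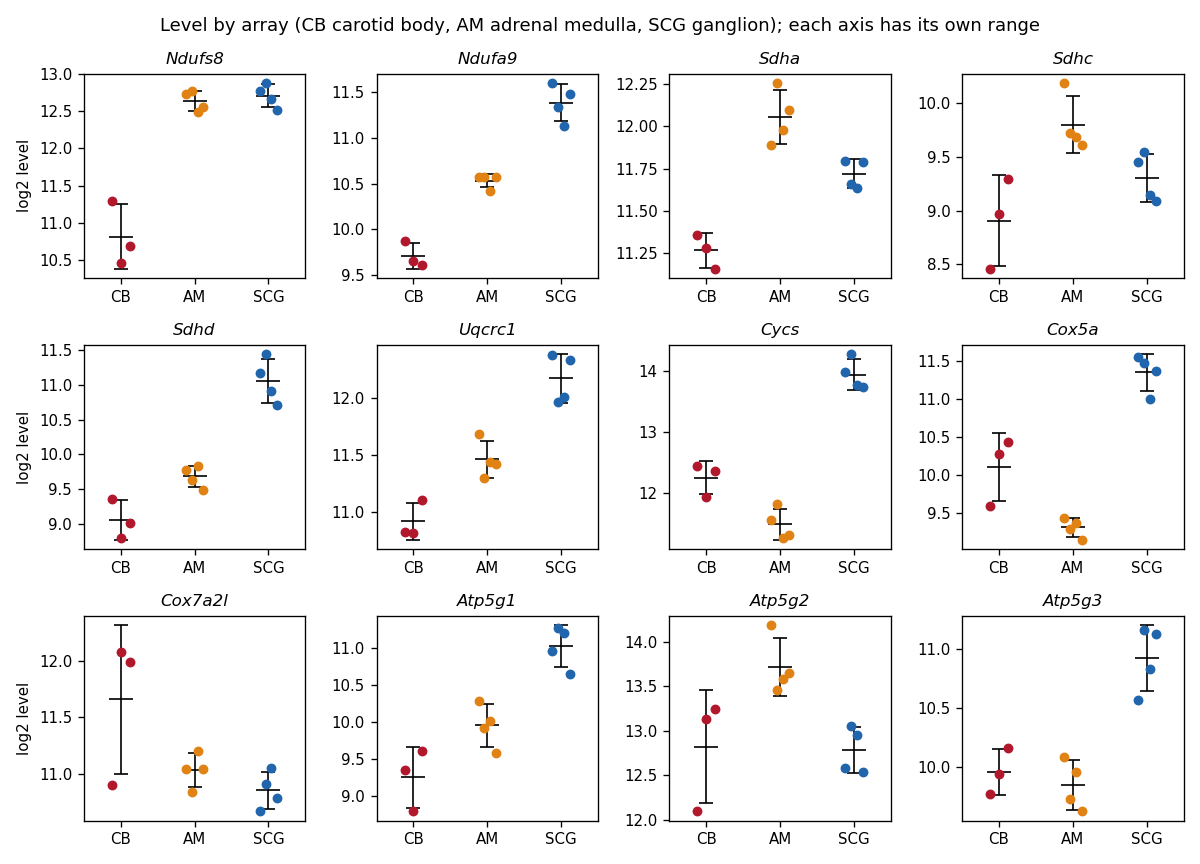
Log2 level on each array for 12 subunits in carotid body (CB, 3 arrays), adrenal medulla (AM, 4) and superior cervical ganglion (SCG, 4), each panel with its own axis range. Points are arrays, horizontal marks are means and bars SDs. The panels show the low carotid body arrays of Ndufs8, the adrenal-high Sdha, Sdhc and Atp5g2, and the ganglion-high Sdhd, Cycs, Cox5a, Atp5g1 and Atp5g3.

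The stalk and membrane subunits of complex V included some of the widest steps between ganglion and adrenal medulla. Atp5o, which links the F1 head to the peripheral stalk, read 8.79, 8.91 and 9.05 in carotid body, 8.62, 8.41, 8.27 and 8.34 in adrenal medulla, and 9.73, 10.00, 9.78 and 9.56 in ganglion. Its 3 tissues did not overlap, with differences of 0.51, -0.85 and -1.36 (limma adjusted p = 0.00752, 0.00021 and 2.65e-06). Atp5k read 6.58, 6.87 and 7.05 in carotid body, 5.86, 5.91, 6.09 and 5.83 in adrenal medulla, and 7.37, 7.53, 7.01 and 6.85 in ganglion. The adrenal medulla was the lowest tissue, by 0.91 and 1.27, and carotid body and ganglion overlapped.

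Atp5md and Atp5mpl, both very small membrane subunits found in the synthase dimer, had ganglion means above the rest but unequal ganglion arrays. Atp5md read 12.62, 13.07 and 13.47 in carotid body, 13.01, 12.52, 12.59 and 12.34 in adrenal medulla, and 14.22, 15.84, 15.27 and 13.93 in ganglion. Atp5mpl read 12.60, 12.95 and 13.05, then 12.14, 11.76, 12.14 and 12.11, then 13.71, 14.97, 14.46 and 13.60 in the same order of tissues. All ganglion arrays of both genes lay above every other array, with replicates 2 and 3 above replicates 1 and 4. Adrenal medulla was 4.61-fold and 4.43-fold below ganglion (limma adjusted p = 0.000862 and 8.37e-05), and carotid body 3.39-fold and 2.49-fold below (limma adjusted p = 0.00619 and 0.00453).

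Atp5l, the g subunit beside the c-ring, differed from ganglion by -1.25 in carotid body and by -1.24 in adrenal medulla on a cluster placed on chromosome 5. The cluster on the gene's own chromosome 9, dimmer, gave -0.45 and -0.36, and neither was called (limma adjusted p = 0.0996 and 0.148).

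The spread between arrays of 1 tissue was shared by many subunits. Over the 76 subunits the median deviation from the ganglion means was 0.22 on ganglion replicate 2 and -0.20 on replicate 4, against -0.04 and 0.01 on replicates 1 and 3. On adrenal medulla arrays it was 0.14 on replicate 1 and between -0.07 and -0.03 on the others. Exactly equal values on 2 or more arrays of a tissue occurred for 24 of the 76 subunits (31.6%) and for 41% of all genes, which makes some SDs small, as for Ndufa9 in adrenal medulla.

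The other genes of the pathway were read from lists by role. Of 10 isoforms and partners outside the set, carotid body was higher than adrenal medulla for 3 (30%) and lower for none. All genes gave 13.7% and 15.6%, and genes above background 19.8% and 26.0%. Cox4i2, an isoform of complex IV subunit 4 with a known place in carotid body oxygen sensing, was 2.22 higher, and its counterpart Cox4i1 was not called (0.18). Ndufa4l2 was 1.63 higher in carotid body than in the adrenal medulla, and Ndufa4, now counted with complex IV, 1.10 higher. Ndufa4 differed by -2.13 between adrenal medulla and ganglion and had the same order of tissues as Cox5a and Cycs.

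Assembly factors help build the complexes and are not part of them. Of 39 measured, 17 were lower in carotid body than in the adrenal medulla and none higher, and 27 were lower than in ganglion and none higher, with medians of -0.30 and -0.49. These are 43.6% and 69.2% of the list, beside 15.6% and 19.9% of all genes called lower and 26.0% and 31.8% of those above background. In adrenal medulla minus ganglion 12 were lower (30.8%, beside 18.8% of all genes) and 1 higher, with a median of -0.08, equal to that of all genes. Of genes above background 26.6% were called lower there. Cox15, which makes the heme of complex IV, differed in carotid body by -1.72 from adrenal medulla and by -1.61 from ganglion. Atpaf1, which assembles the F1 head, differed there by -1.20 from adrenal medulla, and Coa3, an early complex IV factor, differed from ganglion by -1.62 in carotid body and by -1.60 in adrenal medulla.

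Of 22 genes of mitochondrial mass and protein import, 16 were lower in carotid body than in the adrenal medulla and 14 lower than in ganglion, with none higher in either contrast and medians of -0.62 and -0.76. These are 72.7% and 63.6% of the list, beside the same 15.6% and 19.9% of all genes and 26.0% and 31.8% of those above background. In adrenal medulla minus ganglion 7 were higher and 10 lower (31.8% and 45.5%, beside 15.6% and 18.8%). Genes above background gave 25.8% and 26.6% there. The chaperone genes Hspd1 and Hspa9 differed between carotid body and adrenal medulla by -2.25 and -1.60. Both were also higher in adrenal medulla than in ganglion, by 1.43 and 1.54. In carotid body minus ganglion they gave -0.83 and -0.06, the second not called. Cs, the citrate synthase gene often read as a measure of mitochondrial content, differed from ganglion by -1.82 in carotid body and by -0.98 in adrenal medulla. Mfn2, which fuses mitochondria, and the import receptor Tomm70a both differed from ganglion by -2.24 in carotid body, and by -1.44 and -1.68 in adrenal medulla.

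Of 12 coenzyme Q genes the carotid body had 6 below the adrenal medulla and none above it, and against ganglion 5 were lower and 1 higher. Adrenal medulla had 4 lower and 2 higher than ganglion. The shares lower in these 3 contrasts were 50%, 41.7% and 33.3%, beside 15.6%, 19.9% and 18.8% of all genes. Of genes above background 26.0%, 31.8% and 26.6% were called lower. Coq5, a methyltransferase of the pathway, differed in carotid body by -2.20 from adrenal medulla and by -1.64 from ganglion. Among 15 transcription regulators the calls were mixed. In carotid body minus adrenal medulla 3 were higher and 2 lower (20% and 13.3%, beside 13.7% and 15.6% of all genes). Each contrast with ganglion had 4 higher and 5 lower (26.7% and 33.3%). All genes gave 14.2% and 19.9% there for carotid body, and 15.6% and 18.8% for adrenal medulla. Genes above background gave 22.4% and 31.8%, then 25.8% and 26.6%, in the same order. Ppargc1a, the coactivator of mitochondrial biogenesis, was 2.46 higher in carotid body than adrenal medulla, and the adrenal medulla differed from ganglion by -2.66. Tfb2m, a mitochondrial transcription factor, was high in adrenal medulla, with -1.20 for carotid body against it and 0.91 over ganglion.

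RefSeq promoter windows of 250 bases before to 50 after the start were found for 63 of the 76 subunits. The full NRF1 motif was in 4 of them (6.35%), against 1.47% of 17492 genes with a window. The shorter NRF1 form, which every full motif contains, was in 13 (20.6%, against 5.4%), and the YY1 motif in 10 (15.9%, against 3.57%). The ETS motif was in 16 (25.4%, against 12.9%) and the ERR motif in 2, Atp5g3 and Sdhd (3.17%, against 0.377%). The Sdhd match lies after the start, outside the bases printed above. The CCAAT box, left in lower case above, was in 27 (42.9%, against 42.3%). Both strands were searched, and a match is a description of letters only.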

How the data were processed

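RNA of 11 pools was amplified with the WT PLUS kit and hybridised to Affymetrix Mouse Transcriptome 1.0 arrays, per the labels' protocols. The deposited log2 values were made by the authors, 1 value per transcript cluster, and the submitters' processing notes name RMA and Affymetrix Expression Console, with the version and genome build not given in the sources used here. The array maxima of 19.7 to 19.9 exceed what a plain log2 of a scan would give, and no source explains this, so folds are on the deposited scale. Raw scans were not analysed here. The number of arrays limits the precision, and whether animals were shared between pools is not given, so p-values measure the spread between pools.

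The table has 72688 features. Clusters with 1 symbol (30604) were named from the platform annotation, with 819 symbols updated through RefSeq (GRCm38.p6), and the 2146 with several symbols were not used. Of several clusters of a gene (355 genes) the one with the highest mean over 11 arrays was taken. limma 3.58.1 in R 4.3.3 (lmFit, eBayes, tissue as the only factor) gave 3 contrasts with Benjamini-Hochberg adjustment over 30142 genes. The fit was tested on simulated data. Summed levels are the log2 of summed linear values. Tables were made with pandas 2.3.3 and figures with matplotlib 3.10.9.

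The members and the lists were chosen with earlier results of these data known. Named were, in each complex and contrast, up to 4 called members in each direction with the largest difference, every member called at 2-fold or more, the complex I core, complex II, the main subunits of complexes III and IV, F1, the c-ring, and members under the background bound, with up to 4 called genes of each list and contrast. Genes named beside these, such as Cox4i1, were chosen after their values were seen. Alternatives were other scalings, the replicate number as a block, array weights, an intensity trend, the arrays of only the tissues compared, other gene filters, other clusters and leaving out each array.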

Additional observations from a re-analysis of the deposited data

Results flagged for a closer look

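Of 114 groups of 4 arrays (each of the 52 named subunits, and the median of each of the 5 complexes, in adrenal medulla and in ganglion), 6 held an array set apart by Dixon's test. The test divides the gap to the nearest array by the range of the group. Without equal values chance gives about 1 in 20 groups. Where the other arrays are all equal, as for Ndufa9 and Cox6b2 below, the test is passed at any distance. In adrenal medulla, replicate 1 read 13.82 for Cox6b1 (others 13.31 to 13.36) and 11.61 for Ndufa10 (others 11.31 to 11.32), and its median over complex I was 9.45 (others 9.32 to 9.34). Replicate 2 read 11.76 for Atp5mpl (others 12.11 to 12.14), and replicate 3 read 10.42 for Ndufa9 (the others all 10.57). In ganglion, replicate 2 read 5.35 for the dim Cox6b2 (the others all 5.37). With 3 carotid body arrays that tissue was not tested in this way.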

How the results depend on the processing

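Of the calls of named members, 18 of 26 in carotid body minus adrenal medulla, 27 of 38 in carotid body minus ganglion and 26 of 35 in adrenal medulla minus ganglion held under all alternatives run for them. In carotid body minus adrenal medulla, subunits called higher numbered 16 with array weights and 6 to 16 on leaving out 1 array (16 without carotid body replicate 1). At 2-fold or more they numbered 0 to 3 higher (3 without carotid body replicate 1) and 2 to 4 lower (4 without carotid body replicate 3), and 5 lower with median centring, where the complex II median was -0.86. In carotid body minus ganglion, subunits called higher numbered 1 with only the arrays of those tissues and 1 to 7 on leaving out 1 array (7 without carotid body replicate 1, 1 without carotid body replicates 2 or 3 or ganglion replicates 1 or 4). At 2-fold or more 0 to 1 was higher (1 without carotid body replicate 1). With the quantile normalization repeated, 1 was higher and 11 lower at 2-fold or more, and the medians were -0.18, -0.29, -0.54 and -0.56 for complexes I, II, III and V. In adrenal medulla minus ganglion, subunits called higher numbered 6 with median centring and 7 with the quantile normalization repeated, and at 2-fold or more 1 under each of these, 1 with the mean of all clusters, 1 with the cluster on the gene's own chromosome (an alternative chosen after seeing the data) and 0 to 1 on leaving out 1 array (1 without adrenal medulla replicate 2 or ganglion replicate 2). There the repeated quantile normalization gave medians of -0.27 for complex I and 0.38 for complex II, ended the calls of Cyc1, Ndufa1, Ndufv1, Ndufv2, Uqcr11, Uqcrh and Atp5b, and turned Uqcrc2 from -0.10, not called, to 0.24, called (limma adjusted p = 0.02). Dim genes left out, protein-coding genes only and an intensity trend moved no count or median past these limits. The cause of each of these changes was not tested.

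The labels number the replicates in every tissue. Deviations of same-numbered arrays had a correlation over genes of 0.25 for replicate 2 of carotid body and ganglion. All other same-numbered pairs lay between -0.17 and 0.08. Low correlations cannot decide whether the numbers pair the arrays by animal, as organs of the same mice need not deviate together. The main fit used no pairing. With the replicate block 6 subunits were higher and 16 lower in carotid body minus adrenal medulla, 3 and 40 in carotid body minus ganglion, and 2 and 38 in adrenal medulla minus ganglion. Of the arrays of the first-named tissue in each contrast, only carotid body replicate 2, against ganglion, correlated best with its own number.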
